A study of Mus musculus with 70 samples.

Results

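A set of 10 genes of cell-mediated killing was followed in the immune cells of histotripsy-treated melanomas. They were the granule genes Gzma, Gzmb, Prf1 and Nkg7, the cytokine gene Ifng, the death ligand gene Fasl, and the natural killer (NK) receptor genes Klrb1c, Ncr1, Klrk1 and Klrd1. The genes were chosen by symbol, 10 of the 55487 lines with a gene name in each count table, and all 10 passed the filter on low counts on both days. RNA was measured by QuantSeq, which reads only the poly(A) end of a transcript, so a longer transcript gives no more counts than a short one, in CD45+ cells flow-sorted from B16F10 tumors. B16F10 is a transplantable melanoma line of C57BL/6 mice, and CD45 is carried by blood-derived cells, so the sorted fraction held T cells, NK cells and myeloid cells together. Mice bore a tumor on each flank, and a tumor on 1 flank received sham ablation (control) or partial histotripsy, a mechanical ablation with focused ultrasound. Histotripsy-treated tumors were ablated, and histotripsy-abscopal tumors were the untouched tumors on the opposite flank of treated mice. Tumors were collected on day 3 (4 control, 6 histotripsy-treated and 7 histotripsy-abscopal libraries) and on day 7 (10, 3 and 4 libraries). Per the study, these days count from the sham or histotripsy ablation. Only part of each treated tumor was ablated. The study used young adult mice of both sexes, and the labels give no age or sex for a library and do not tie treated to abscopal tumors of the same mouse. They also do not say which libraries came from separate mice, so p-values measure the spread between these libraries.

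NK cells and CD8+ T cells kill by releasing granules at the contact with a target cell. Perforin, the product of Prf1, opens the target's membrane to the granzymes, serine proteases such as granzyme A (Gzma) and granzyme B (Gzmb), and NKG7 is a granule membrane protein needed for efficient release. Fas ligand (Fasl) triggers death through Fas on the target, and interferon-gamma (Ifng) acts on neighbouring cells through its own receptor. Of the receptors, NK1.1 (Klrb1c) and NKp46 (Ncr1) mark NK cells in C57BL/6 mice, while NKG2D (Klrk1) and CD94 (Klrd1, the partner of the NKG2 chains) are also carried by activated CD8+ T cells. In bulk libraries of this kind, fewer cells of a type and less RNA per cell cannot be told apart.

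The sort separated the 10 genes cleanly. In the 36 libraries of CD45- cells, 323 of 360 values were 0 counts, no value exceeded 3 counts, and the 10 genes summed to 53 counts. In the 34 CD45+ libraries they summed to 107007 counts, the lowest single value was 7 counts, and Ptprc, which encodes CD45, lay between 635 and 1204 CPM (counts per 1000000 counts). CD45+ libraries held 887798 to 2824959 counts. Values below are CPM scaled with factors estimated over the 34 CD45+ libraries. Of the libraries of day 3, 3 stood apart. Histotripsy-treated replicate 3 had the lowest scaling factor of its table (0.765), the highest summed neutrophil markers (35950 CPM) and the lowest level of 9 of the 10 genes among the 6 treated libraries of that day. Histotripsy-abscopal replicates 1 and 4 had summed melanoma markers of 1200 and 2286 CPM, against 94.38 to 302.7 CPM in the other 5 abscopal libraries, 96.16 to 248.8 CPM in controls and 115.6 to 394.7 CPM in treated tumors. Test results of day 3 and of the interaction are given below, and many of them also without treated replicate 3. Some results of the 10 genes against or in abscopal tumors of day 3 are also given without abscopal replicates 1 and 4, a choice made after the data were seen.

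In control tumors of day 3 the 10 genes spanned about an order of magnitude. Nkg7 had the highest median (493.9 CPM), followed by Gzma (412 CPM), Prf1 (374.6 CPM) and Gzmb (214.3 CPM). Ifng (140.2 CPM), Klrk1 (139.1 CPM) and Klrd1 (139.1 CPM) lay close together, with Klrb1c (60.46 CPM), Ncr1 (33.48 CPM) and Fasl (30.26 CPM) lowest. Neighbours in this order had overlapping ranges over the 4 libraries with 1 exception: Klrb1c (56.97 to 101.9 CPM) lay above Ncr1 (24.42 to 47.03 CPM) in every library.

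**Figure D1:**
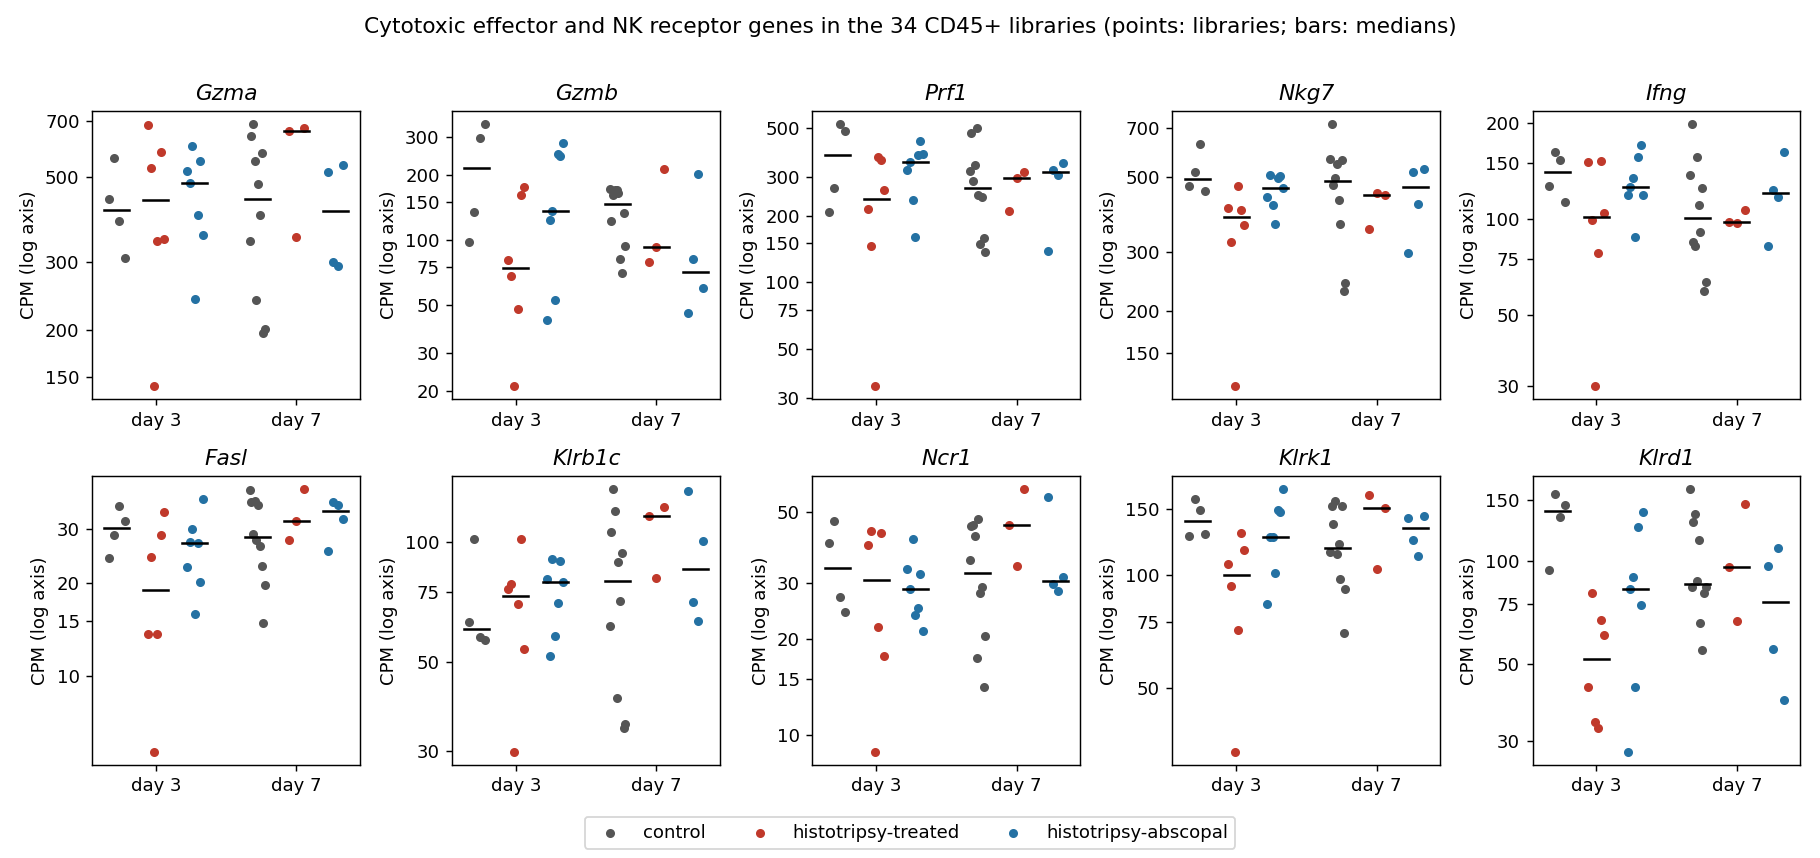
Level of each of the 10 genes in every CD45+ library (CPM, log axis) on day 3 and day 7, with 1 point per library and a bar at the group median. Control libraries are grey, histotripsy-treated red and histotripsy-abscopal blue. On day 3, Klrd1 in the 6 treated libraries sat between 32.68 and 80.70 CPM, under all 4 control libraries, while the other 9 genes overlapped between those groups.

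Klrd1 was the single gene of the 10 that passed the threshold in histotripsy-treated against control tumors on day 3, and it fell. The 4 control libraries held 93.69, 133.6, 144.6 and 156.2 CPM of Klrd1, and the 6 treated libraries ranged from 32.68 to 80.70 CPM with a median of 51.76 CPM. No treated library reached the lowest control library. The log2 fold change was -1.30 (SE 0.33, 95% interval -1.98 to -0.62, edgeR adjusted p = 0.0185), a level 0.406 times that of controls. Across all genes tested in this comparison, 801 of 10264 (7.8%) passed the same threshold, so 1 of 10 was close to the share over all genes. By direction, 638 were higher and 163 (1.59%) were lower, a split that turned to 414 higher and 663 lower with library totals in place of the scaling factors. With the scaling factors, every treated library lay below every control library in 261 of the 10264 genes (2.54%), counted by CPM. The call for Klrd1 was kept without treated replicate 3 (log2 fold change -1.21, edgeR adjusted p = 0.0388). It was lost when control replicate 2, 3 or 4 was left out (edgeR adjusted p = 0.0568, 0.053 and 0.0576), with log2 fold changes of -1.21, -1.31 and -1.26.

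None of the 4 granule genes passed the test on day 3. Gzmb held 97.40, 133.8, 294.8 and 343.8 CPM in the control libraries and 21.03 to 175.4 CPM (median 74.17 CPM) in treated tumors. The groups overlapped, and control replicates 1 and 2 lay well under the other two. Its log2 fold change of -1.22 (SE 0.52, 95% interval -2.29 to -0.14) was close in size to that of Klrd1 but did not pass over all genes (p = 0.028, edgeR adjusted p = 0.153). Nkg7 held 454.6, 469.4, 518.4 and 626.5 CPM in controls and 119.7 to 470.5 CPM (median 379.6 CPM) in treated tumors. Only the highest treated library reached the control range. The log2 fold change of Nkg7 was -0.56 (SE 0.24, edgeR adjusted p = 0.148). Prf1 held 208.7, 267.6, 481.7 and 520.6 CPM in controls and 33.97 to 370.4 CPM (median 238.5 CPM) in treated tumors, and its log2 fold change was -0.66 (SE 0.40, edgeR adjusted p = 0.339). The level of Gzma was 308.5, 385.3, 438.8 and 561.2 CPM in controls and 142.3 to 684.1 CPM (median 436.7 CPM) in treated tumors and the treated range enclosed the control range. The log2 fold change of Gzma was 0.06 (SE 0.31, 95% interval -0.59 to 0.71, edgeR adjusted p = 0.934), and its sign turned with library totals in place of the scaling factors (-0.11).

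Ifng and Fasl also missed the threshold on day 3. Ifng held 113.2 to 162.5 CPM in the 4 controls and 29.92 to 152.7 CPM (median 101.8 CPM) in treated tumors, with a log2 fold change of -0.42 (SE 0.28, edgeR adjusted p = 0.385). Fasl held 24.12 to 35.70 CPM in controls and 5.66 to 34.05 CPM (median 18.99 CPM) in treated tumors, with a log2 fold change of -0.56 (SE 0.31, edgeR adjusted p = 0.282). In both genes the lowest value belonged to treated replicate 3.

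The other 3 receptors did not pass in the same comparison. Klrk1 held 127.1, 128.7, 149.6 and 159.9 CPM in controls and 33.97 to 129.7 CPM (median 100.3 CPM) in treated tumors. A single treated library, replicate 5, entered the control range, and the log2 fold change was -0.60 (SE 0.25, p = 0.0261, edgeR adjusted p = 0.148). Ncr1 held 24.42, 27.08, 39.89 and 47.03 CPM in controls and 8.90 to 43.56 CPM (median 30.59 CPM) in treated tumors, with a log2 fold change of -0.22 (SE 0.32, edgeR adjusted p = 0.718). Klrb1c held 56.97 to 101.9 CPM in controls and 29.92 to 101.6 CPM (median 73.17 CPM) in treated tumors, with a log2 fold change of -0.02 (SE 0.25, edgeR adjusted p = 0.98).

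In all, 9 of the 10 genes had a negative log2 fold change in treated tumors on day 3. Of the 10, 4 had an unadjusted p under 0.05, and their median was -0.56. Over all genes tested, 2457 of 10264 (23.9%) had an unadjusted p under 0.05, 49.2% had a positive log2 fold change and the median was -0.01. Without treated replicate 3, 8 of 10 were negative, their median was -0.39, and Klrd1 was the single call where 5.53% of 10219 genes passed. The log2 fold changes without that library were -1.02 for Gzmb (edgeR adjusted p = 0.238), -0.43 for Prf1, -0.39 for Nkg7, -0.24 for Ifng, -0.38 for Fasl, -0.43 for Klrk1 and -0.04 for Ncr1. Gzma was at 0.24 and Klrb1c turned to 0.13. Scaling by library totals moved the median of all genes to -0.23, made all 10 negative and kept Klrd1 as the single call (log2 fold change -1.51, edgeR adjusted p = 0.0108). With no filter on low counts, Gzmb, Prf1, Nkg7 and Klrk1 passed beside Klrd1, 5 of the 10, where 1244 of 30097 genes (4.13%) passed and the table also held the genes below that filter. With a replicate block, Gzmb and Klrk1 passed beside Klrd1, 3 of the 10, where 1256 of 10264 genes (12.2%) passed.

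Markers of some other cells moved in the same libraries. The 12 T cell markers summed to 2101 to 2589 CPM in controls and 705.2 to 1968 CPM in treated tumors of day 3, without overlap, and 3 of the 12 fell (Cd3d, Cd8a and Cd8b1). Cd8a, the CD8 alpha chain, had a log2 fold change of -1.19 (SE 0.31, edgeR adjusted p = 0.0214). The 7 neutrophil markers summed to 341.4 to 2566 CPM in controls and 1271 to 35950 CPM in treated tumors, and 5 of the 6 tested rose. The neutrophil sum reached 8878 CPM without treated replicate 3, and 1 of the 6, Mmp9, was called, while the T cell sum ran from 1106 to 1968 CPM with the same 3 calls. The 7 NK cell markers outside the 10 genes summed to 178.7 to 340.7 CPM in controls and 107.6 to 307.4 CPM in treated tumors, with 0 of 6 tested genes called. Their median log2 fold change was -0.09, and 0.06 without treated replicate 3. All 7 dendritic cell markers had a negative log2 fold change and 1 was called lower. Without treated replicate 3 the call of that list was Siglech. No tested B cell, monocyte and macrophage or melanoma marker was called in either fit. None of these markers was at 0 throughout a group. The part of these shifts in the values of the 10 genes was not tested.

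Set against Cd3e, a chain of the T cell receptor complex, the granule genes Nkg7 and Prf1 and the receptor Klrk1 had similar or higher median ratios in treated tumors of day 3. The median log2 ratio of Nkg7 to Cd3e was 1.90 in controls and 1.84 in treated tumors, that of Prf1 was 1.41 and 1.44, and that of Klrk1 was 0.05 and 0.22. For Gzma it was 1.57 in controls and 2.08 in treated tumors. The ratio was lower for Gzmb (0.50 and 0.24) and for Klrd1 (-0.08 and -0.72). Without treated replicate 3 the treated medians were 1.85 for Nkg7, 1.46 for Prf1, 0.22 for Klrk1, 2.39 for Gzma, 0.32 for Gzmb and -0.73 for Klrd1. Against Ncr1, the median log2 ratio of Klrd1 was 2.01 in controls and 0.76 in treated tumors, whereas that of Gzma was 3.61 and 3.94. These ratios are descriptions with no test, and the ranges of the groups overlapped for each.

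Untouched tumors on the opposite flank gave no called gene against controls on day 3. Of the 10264 genes, 0 (0%) passed in histotripsy-abscopal against control tumors with edgeR, 796 had an unadjusted p under 0.05, and DESeq2 called 5 and limma-voom 0. None of the 10 genes was called as reported, and 8 had a negative log2 fold change. With no filter on low counts 1 of the 10, Klrd1, passed, where 0.508% of 30097 genes did. As reported, Klrd1 came nearest, with 27.88 to 138.7 CPM (median 82.77 CPM) in the 7 abscopal libraries, a range that met that of the controls. Its log2 fold change was -0.66 (SE 0.31, p = 0.0454, edgeR adjusted p = 0.632). The lowest values of Klrd1, 27.88 and 42.87 CPM, belonged to replicates 1 and 4, the libraries with high melanoma markers, and the next was 74.42 CPM. Without these 2 libraries the log2 fold change of Klrd1 was -0.37 (edgeR adjusted p = 0.895). Gzmb ranged from 42.49 to 281.5 CPM (log2 fold change -0.42, SE 0.49), with 42.49 and 52.40 CPM in the same 2 libraries and 123.4 CPM in the next, and its log2 fold change without them was -0.07. Over the melanoma markers, 5 were tested in this comparison, with a median log2 fold change of 2.24, 4 with an unadjusted p under 0.05 and 0 called, and the part of this signal in the values of Klrd1 and Gzmb was not tested. Klrk1 ranged from 83.65 to 169.3 CPM (-0.12, SE 0.24) and Gzma from 240.8 to 602.8 CPM (0.09, SE 0.30). The signs of Gzma and of Klrb1c (0.09, SE 0.24) turned with library totals (-0.0041 and -0.0068). The T cell markers summed to 1839 to 2440 CPM in these libraries, overlapping the controls.

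Treated against abscopal tumors of day 3 gave 558 called genes of 10264 (5.44%), of which 500 (4.87%) were higher and 58 (0.565%) lower, and none of the 10 genes was among the calls. Klrd1 (log2 fold change -0.64, SE 0.29) and Klrk1 (-0.48, SE 0.22) had an unadjusted p under 0.05 (p = 0.041 and 0.0415), and their edgeR adjusted p was 0.24 and 0.241. Over all genes tested, 1918 of 10264 (18.7%) had an unadjusted p under 0.05 in this comparison. For Gzmb the log2 fold change was -0.79 (SE 0.46), and for Ncr1 it was 0.02 (SE 0.28), with a turned sign under library totals (-0.07). Without abscopal replicates 1 and 4, Klrd1 was called in this comparison (log2 fold change -0.93, edgeR adjusted p = 0.0276), 1 of the 10 where 477 of 10136 genes (4.71%) passed. With no filter on low counts 2 of the 10 passed, where 3.4% of 30097 genes did. This comparison and the one with controls share the treated libraries, so their values are not independent. Without treated replicate 3, 7 of the 10 log2 fold changes were negative and none had an unadjusted p under 0.05.

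**Figure D2:**
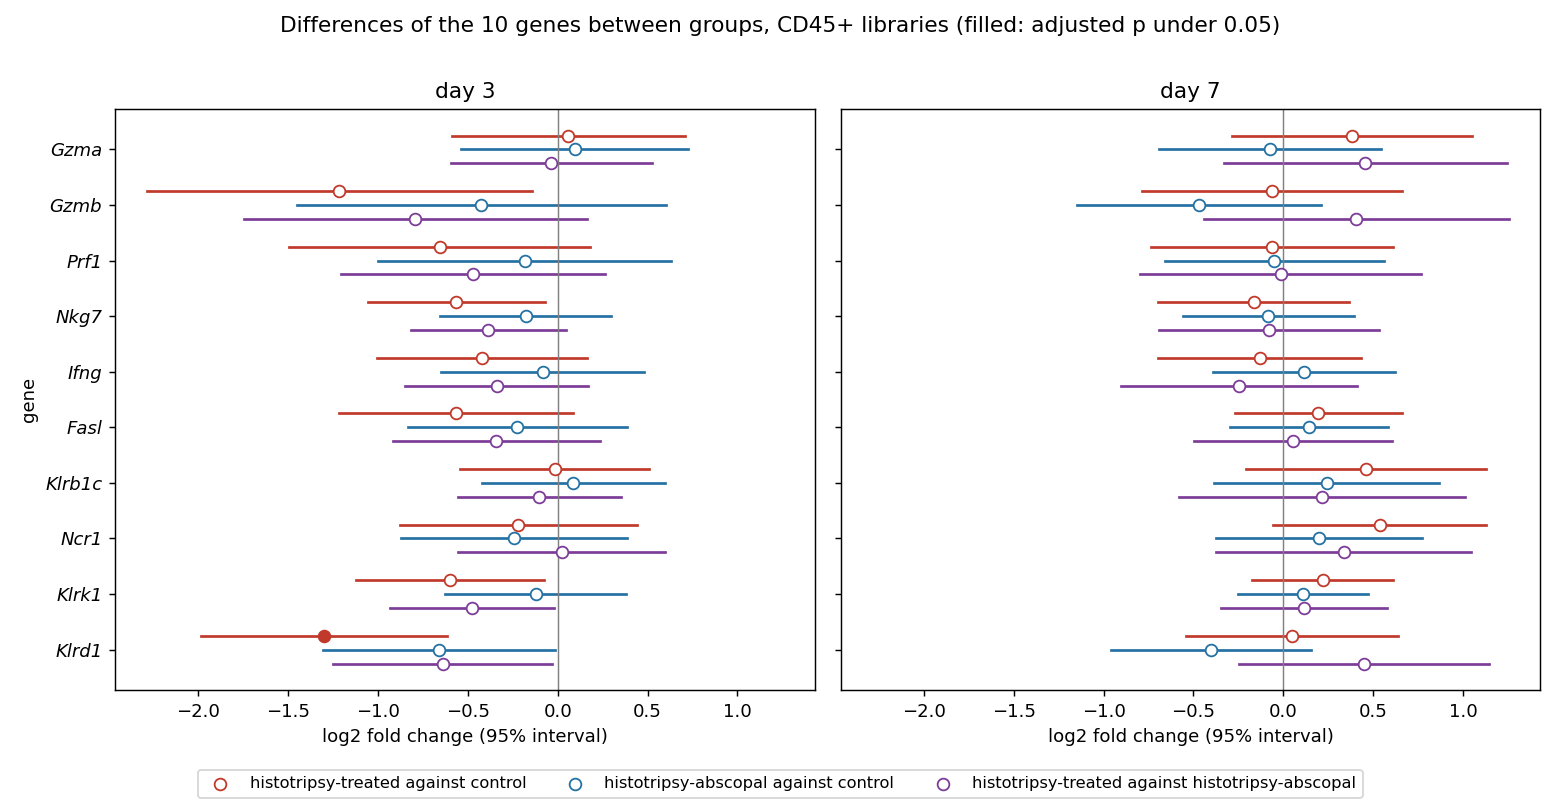
Log2 fold change with its 95% interval for each of the 10 genes in 3 comparisons on day 3 (left) and day 7 (right). A filled point passed an adjusted p under 0.05. The single filled point is Klrd1 in histotripsy-treated against control tumors on day 3 (-1.30), and on day 7 every interval includes 0.

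On day 7 no gene of the 10 passed the test between groups. In each of the 3 comparisons 0 of 10817 genes (0%) passed with edgeR, DESeq2 and limma-voom also called 0, and 344, 800 and 290 genes had an unadjusted p under 0.05 (treated against control, abscopal against control, and treated against abscopal). With edgeR as reported, none of the 10 genes had an unadjusted p under 0.05 in any of them. Under the alternatives, up to 3 of the 10 did in a comparison and 0 were called. Klrd1 held 66.80, 96.01 and 146.1 CPM in the 3 treated libraries, inside the control range of 55.03 to 161.1 CPM (median 85.48 CPM). Its log2 fold change was 0.05 (SE 0.28, 95% interval -0.54 to 0.64). Its abscopal libraries held 39.30, 55.42, 96.38 and 108.6 CPM (log2 fold change against controls -0.40, SE 0.27, edgeR adjusted p = 0.765).

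The largest positive log2 fold changes of the 10 genes in treated tumors of day 7 were those of Ncr1, Klrb1c and Gzma, and none passed the test. Ncr1 held 33.91, 45.39 and 58.92 CPM in treated tumors against 14.21 to 47.47 CPM (median 32.20 CPM) in the 10 controls, and 1 of the 3 lay above every control. The log2 fold change of Ncr1 was 0.53 (SE 0.29, 95% interval -0.06 to 1.13, p = 0.0741). Klrb1c held 81.2, 115.9 and 122.3 CPM in treated tumors and 34.24 to 135.6 CPM in controls (log2 fold change 0.46, SE 0.32). Gzma held 349.4, 661.9 and 671.9 CPM in treated tumors and 195.8 to 690.3 CPM in controls (0.38, SE 0.32). The 6 tested NK cell markers outside the 10 genes all had positive log2 fold changes (median 0.52), 2 with an unadjusted p under 0.05 and 0 called. The T cell markers went the other way, with a median of -0.39 over 12 genes and 0 called.

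The remaining genes also missed the threshold on day 7, and the groups overlapped for each. Gzmb held 78.90, 92.49 and 213.1 CPM in treated tumors, 45.96, 60.11, 81.85 and 202 CPM in abscopal tumors and 70.14 to 171.1 CPM (median 147 CPM) in controls. The log2 fold changes of Gzmb against controls were -0.06 (SE 0.35) in treated and -0.47 (SE 0.33) in abscopal tumors. In both groups replicate 3 lay well above the rest. For Prf1 they were -0.06 (SE 0.33) and -0.05 (SE 0.29), for Nkg7 -0.16 (SE 0.26) and -0.08 (SE 0.23), for Ifng -0.13 (SE 0.27) and 0.12 (SE 0.24), for Fasl 0.20 (SE 0.22) and 0.14 (SE 0.21), and for Klrk1 0.22 (SE 0.19) and 0.11 (SE 0.17). Among these 6 genes the 95% interval for treated tumors was narrowest for Klrk1 (-0.17 to 0.61) and widest for Gzmb (-0.78 to 0.66).

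Whether the log2 fold change on day 7 differed from that on day 3 was asked with an interaction term, fitted over the 34 libraries. For treated tumors, 304 of 11251 genes (2.7%) passed, 29 with a higher and 275 with a lower effect on day 7, and none of the 10 genes was called. All 10 had a higher effect on day 7 than on day 3 (median 0.69), as did 50.9% of all genes tested. This count of the 10 also holds the day 3 values described above. Klrd1 had the highest value, 1.37 (SE 0.46, p = 0.00528, edgeR adjusted p = 0.107), followed by Gzmb with 1.18 (SE 0.67, edgeR adjusted p = 0.391) and Klrk1 with 0.83 (SE 0.33, edgeR adjusted p = 0.182). Without day 3 treated replicate 3 these values were 1.26 (p = 0.0103, edgeR adjusted p = 0.179), 0.96 and 0.65. With no filter on low counts 3 of the 10 passed, where 1.87% of 33634 genes did. As reported, the fall of Klrd1 on day 3 was thus not shown to differ from its value on day 7. For abscopal tumors 0 of 11251 genes (0%) passed with edgeR, 733 had an unadjusted p under 0.05 DESeq2 called 1 and limma-voom 0, and none of the 10 genes was called.

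Other genes of the killing machinery were described from 6 lists. Their calls on day 3 stand beside 6.22% of all genes higher and 1.59% lower against controls. Against abscopal tumors these shares were 4.87% and 0.565%. Without treated replicate 3 they were 4.35% and 1.17% against controls and 2.47% and 0.117% against abscopal tumors. Among 17 tested granule genes on day 3, 2 rose in treated tumors against controls and 0 fell, with a list median of 0.10, and a count this small is not read as a result about the list. Both risers, Srgn, the granule proteoglycan serglycin (log2 fold change 1.18, SE 0.34, edgeR adjusted p = 0.0344), and Lyst, a regulator of lysosome traffic (1.07, SE 0.24, edgeR adjusted p = 0.00874), are also made by myeloid cells. Lyst was kept without treated replicate 3 (0.85, edgeR adjusted p = 0.0139) and Srgn was not (0.77, edgeR adjusted p = 0.0762). Srgn reached 3760 CPM in its highest treated library against 903 CPM in its highest control. Among 26 tested killer receptors and adaptors, 3 fell and 0 rose, with a median of -0.33 (-0.20 without treated replicate 3). Cd226, the activating receptor DNAM-1, had a log2 fold change of -1.03 (SE 0.17, edgeR adjusted p = 0.00166), Cd96, a receptor of the same ligand family, -0.71 (SE 0.21, edgeR adjusted p = 0.0387), and Cd247, the signalling CD3 zeta chain, -0.69 (SE 0.19, edgeR adjusted p = 0.0274). Without treated replicate 3, Cd226 (-0.95, edgeR adjusted p = 0.00353) and Cd247 (-0.72, edgeR adjusted p = 0.0371) were kept and Cd96 was not (-0.61, edgeR adjusted p = 0.0794). Klra17, a gene of the Ly49 family, was called in that fit (-1.51, edgeR adjusted p = 0.00823). The same 3 genes were the calls of that list against abscopal tumors, Cd247 alone was kept there without treated replicate 3, and Cd226 had a log2 fold change of -0.56 (SE 0.16, edgeR adjusted p = 0.0392). Klrc1, which encodes the NKG2A chain that pairs with CD94 and is named here after its values were seen, had a log2 fold change of -0.90 against controls and did not pass (edgeR adjusted p = 0.0986; -0.72 without treated replicate 3).

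Regulators and cytokine receptors gave 1 call of 15, Nfil3, a transcription factor needed for NK cell development (log2 fold change 0.51, SE 0.15, edgeR adjusted p = 0.0344), a share close to that over all genes, and it was lost without treated replicate 3 (0.50, edgeR adjusted p = 0.0515). Of 5 tested activating cytokines, Il23a, a subunit of interleukin-23, rose from 2.78 to 33.72 CPM in controls to 46.24 to 365.6 CPM in treated tumors (log2 fold change 3.31, SE 0.59, edgeR adjusted p = 0.00238). Of 7 other death ligands and cytokines, Ccl3, a chemokine also made by myeloid cells, rose (log2 fold change 1.62, SE 0.31, edgeR adjusted p = 0.00398). Against abscopal tumors, Ccl3 and Tnf rose, Tnf by a log2 fold change of 1.41 (SE 0.27, edgeR adjusted p = 0.00329), and Il18r1, a chain of the interleukin-18 receptor, fell (-0.64, SE 0.19, edgeR adjusted p = 0.0457). Also called higher there were 1 of 17 tested granule genes and 1 of 8 tested ligands and target-cell receptors. Neither of these 2 lists held a call there without treated replicate 3. Fas, the receptor of Fas ligand, rose against controls (log2 fold change 1.70, SE 0.38, edgeR adjusted p = 0.00926) while Cd48, a ligand of an NK receptor carried on leukocytes, fell (-1.08, SE 0.26, edgeR adjusted p = 0.0154). The calls of Il23a, Ccl3, Fas and Cd48 against controls were kept without treated replicate 3 (log2 fold changes 2.91, 1.35, 1.27 and -1.13), as were those of Il23a, Ccl3 and Tnf against abscopal tumors, and that of Il18r1 was lost (-0.53, edgeR adjusted p = 0.124). In abscopal against control tumors of day 3, and in all 3 comparisons of day 7, 0 genes of the 6 lists were called. The effects on day 7 and day 3 differed for 3 of these genes, Il23a (-4.26, SE 1.01, edgeR adjusted p = 0.0171), Ccl3 (-1.77, SE 0.46, edgeR adjusted p = 0.0305) and Fas (-1.75, SE 0.47, edgeR adjusted p = 0.0332). Over all genes tested, 304 of 11251 (2.7%) passed. Without day 3 treated replicate 3, Il23a was kept (-3.90, edgeR adjusted p = 0.0319), and Ccl3 and Fas were not (edgeR adjusted p = 0.0646 and 0.0598). In that fit Klra17 was called with a higher effect on day 7, and 172 of 11330 genes (1.52%) passed.

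**Figure D3:**
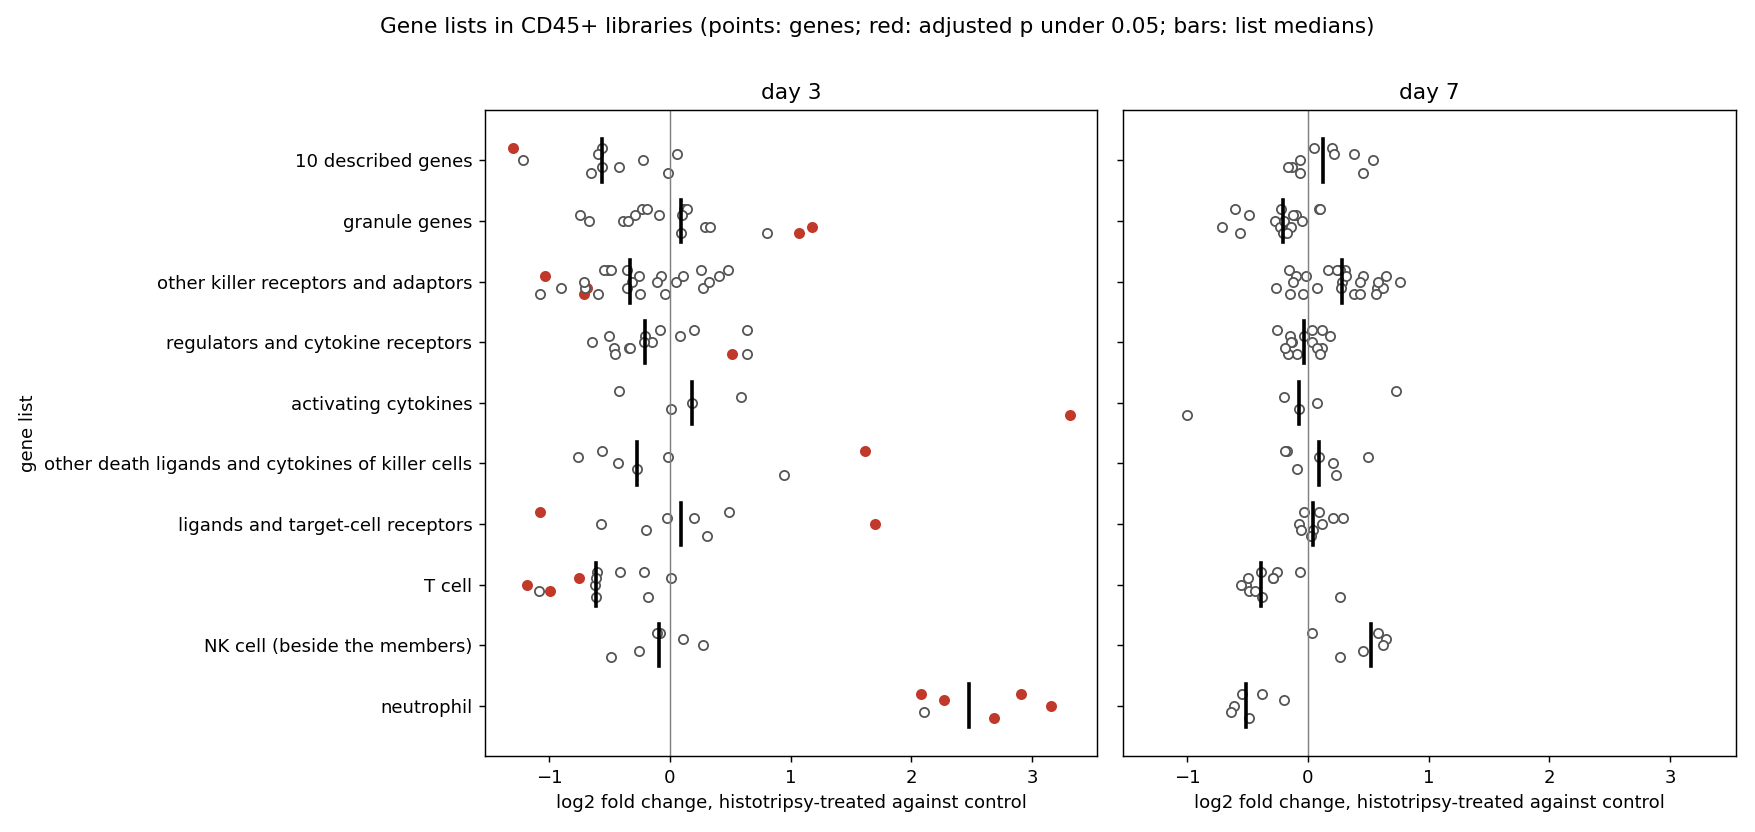
Log2 fold change of histotripsy-treated against control tumors for the genes of each list on day 3 (left) and day 7 (right), with 1 point per tested gene, red points past an adjusted p under 0.05 and a bar at the list median. On day 3 the 10 described genes (median -0.56) and the T cell markers (-0.61) lay mostly left of 0 and the neutrophil markers (2.48) right of it, and on day 7 no point is red.

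Across libraries the 10 genes did not form a single block. Each gene's log2 CPM was compared with that of the others after removal of the group means, over 34 libraries that share depth differences and cell mixtures, as a description. All 45 pairs had a positive Pearson r, from 0.11 to 0.90. Gzma, Klrb1c and Ncr1 were most alike (r = 0.90 for Gzma and Klrb1c, 0.88 for Gzma and Ncr1, and 0.86 for Klrb1c and Ncr1), and the nearest gene outside the 10 to Gzma was Klra4, an NK receptor of the Ly49 family (r = 0.88). Prf1, Nkg7 and Ifng were another set (r = 0.88 for Prf1 and Nkg7, and 0.86 for Ifng and Nkg7). The nearest genes to Prf1 were Cd8a (r = 0.93) and Cst7 (r = 0.93), and the nearest to Nkg7 was Thy1 (r = 0.96), a T cell surface protein. Gzma, by contrast, had an r of 0.27 with Cd3e and 0.32 with Cd8a.

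Gzmb and Klrd1 were more like each other (r = 0.735) than like the NK cell genes Klrb1c, Ncr1 and Klre1. The r with Klre1 was 0.485 for Gzmb and 0.651 for Klrd1. Gzmb had an r of 0.15 with Gzma and 0.64 with Prf1, and its nearest gene was Rgs16 (r = 0.88), a regulator of G protein signalling. Klrd1 had an r of 0.31 with Ncr1 and 0.12 with Nkg7. The 5 genes nearest to Klrd1 among all tested were ribosomal protein genes and a pseudogene of that class, led by Rps18 (r = 0.88) and Rps6-ps4 (r = 0.88). With the log2 sum over 77 ribosomal protein genes, a set defined after this was seen, Klrd1 had an r of 0.79, Gzmb 0.54 and Gzma 0.09. That sum had a median of 50320 CPM in controls of day 3 (range 36690 to 52180 CPM), 37940 CPM in treated tumors (31270 to 41710 CPM, and 36830 to 41710 CPM without replicate 3) and 42090 CPM in abscopal tumors (29710 to 49880 CPM). Of 76 ribosomal protein genes tested on day 3, 75 had a negative log2 fold change in treated tumors (median -0.39) and 1 was called. Rps18 itself had a log2 fold change of -0.63 (SE 0.22, edgeR adjusted p = 0.0823). The part of this shift in the fall of Klrd1 was not tested.

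**Figure D4:**
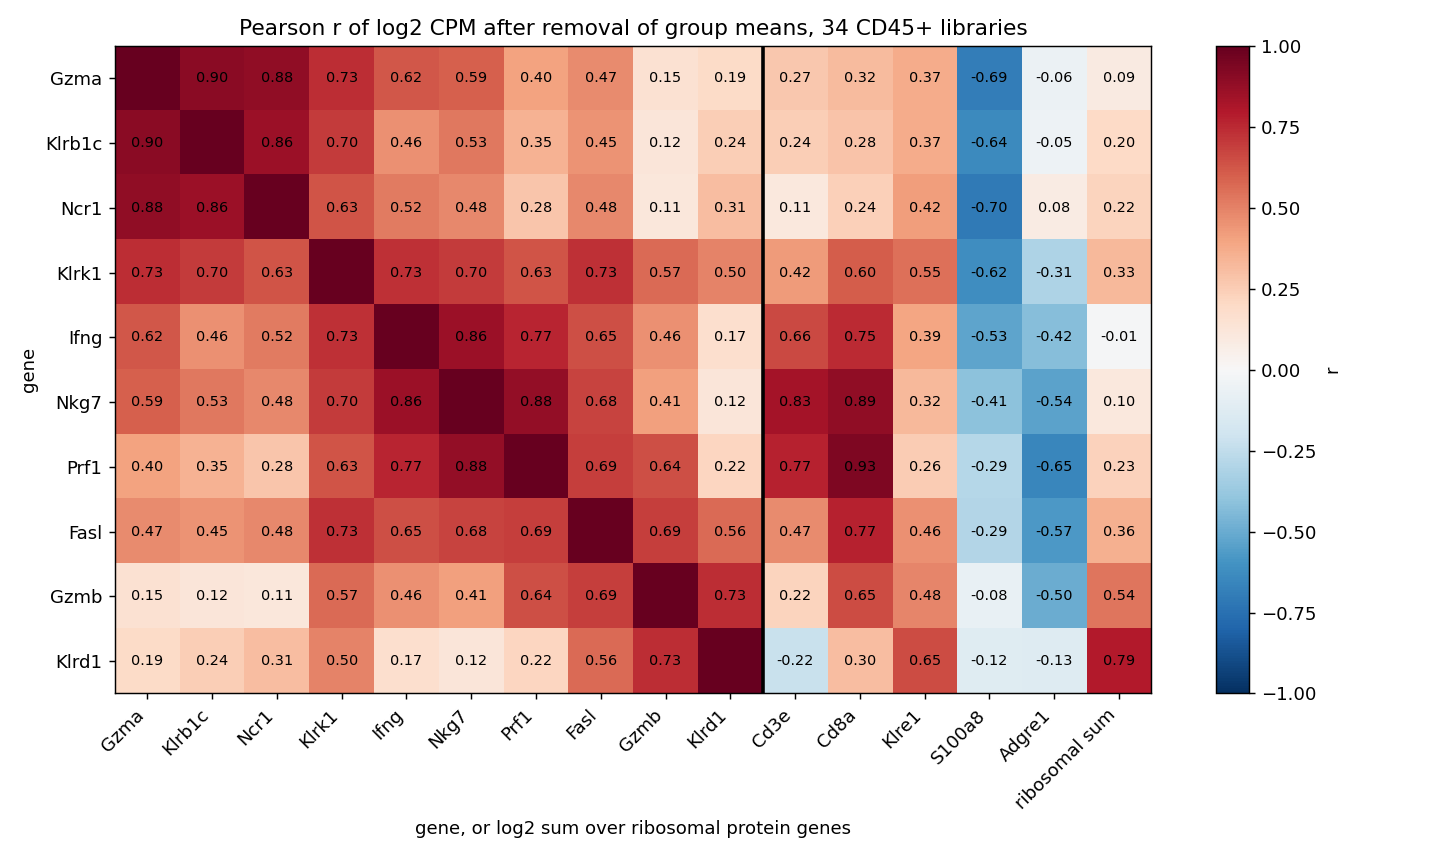
Pearson r of log2 CPM after removal of group means over the 34 CD45+ libraries, for the 10 genes against each other (left of the line) and against Cd3e and Cd8a (T cells), Klre1 (NK cells), S100a8 (neutrophils), Adgre1 (macrophages) and the summed ribosomal protein genes (right of the line). Gzma, Klrb1c and Ncr1 form a block of r from 0.86 to 0.90, and Klrd1 has its highest r in the last column (0.79).

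The promoters of 4 genes are shown for genes on both sides of this split, Gzma and Ncr1, which varied together, Gzmb, which did not vary with them, and Klrk1, which had an r of 0.567 to 0.735 with all 3. Each is the 250 bases before the RefSeq start in GRCm38.p6, read 5′ to 3′ on the gene's strand. Capitals mark the letters TGTGGT, the core of the motif of RUNX factors, and GTGTGA, a core of the motif of T-box factors, on either strand.
Gzma, chr13:113100982-113101231, minus strand: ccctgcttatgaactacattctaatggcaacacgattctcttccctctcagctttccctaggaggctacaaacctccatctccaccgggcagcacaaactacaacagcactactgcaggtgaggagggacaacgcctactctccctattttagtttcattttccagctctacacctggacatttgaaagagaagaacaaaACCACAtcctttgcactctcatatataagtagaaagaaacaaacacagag
Gzmb, chr14:56262335-56262584, minus strand: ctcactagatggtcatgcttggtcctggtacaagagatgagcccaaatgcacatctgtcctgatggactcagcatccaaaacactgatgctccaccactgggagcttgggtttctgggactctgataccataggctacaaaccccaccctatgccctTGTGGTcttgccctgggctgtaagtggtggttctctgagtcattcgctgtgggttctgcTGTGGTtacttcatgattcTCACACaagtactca
Ncr1, chr7:4337465-4337714, plus strand: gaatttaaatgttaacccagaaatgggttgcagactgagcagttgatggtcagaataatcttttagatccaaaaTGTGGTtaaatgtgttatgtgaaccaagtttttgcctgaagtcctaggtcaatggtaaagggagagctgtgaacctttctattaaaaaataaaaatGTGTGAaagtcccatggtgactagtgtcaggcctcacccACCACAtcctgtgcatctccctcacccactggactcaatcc
Klrk1, chr6:129623865-129624114, minus strand: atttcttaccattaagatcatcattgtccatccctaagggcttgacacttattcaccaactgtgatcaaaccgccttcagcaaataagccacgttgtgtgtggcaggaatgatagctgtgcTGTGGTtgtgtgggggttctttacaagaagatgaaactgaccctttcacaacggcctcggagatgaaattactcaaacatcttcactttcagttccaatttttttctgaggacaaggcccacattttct

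A window was found for 9 of the 10 genes. For Ncr1 the table lists 2 starts, and the one listed before the other was used. The RUNX core was in 7 of the 9 windows (Gzma, Gzmb, Prf1, Nkg7, Klrb1c, Ncr1 and Klrk1), with 2 copies in Gzmb and in Ncr1, and in 14% of 32851 windows of the same length. The T-box core was in 3 (Gzmb, Nkg7 and Ncr1) and in 12.3% of all windows, and the STAT motif TTCNNNGAA in 2 (Ifng and Nkg7) and in 7.02%. In Gzmb the T-box core began 15 bases and the nearer RUNX core 34 bases before the start. The motifs are letter matches in these windows and do not show binding.

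In the GENCODE annotation of GRCm38, 3 of the receptor genes lie on chromosome 6, Klrb1c at 128778485 to 128789215, Klrd1 at 129591782 to 129598775 and Klrk1 at 129610323 to 129623864, with Klrd1 on the plus and the other two on the minus strand. Klrd1 and Klrk1 are thus close neighbours, and their r was 0.50. Klrb1c shares exon sequence with Gm44511, and of the 101-base windows in the last 500 bases of its transcripts 10.4% occur also in Gm44511 or Klrb1a. For Ifng, 8.7% of such windows occur also in Gm49751. Reads from those stretches could be assigned to either gene or dropped, so the levels of Klrb1c and Ifng are uncertain to that extent, and the other 8 genes shared no window.

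On the side of the tumor, CD45- cells carried receptors for several of these products and ligands for these receptors at levels from 0 to 67.57 CPM in the group medians. Pvr, a ligand of DNAM-1, had group medians of 47.87 to 67.57 CPM, Nectin2, its other ligand, 27.75 to 35.24 CPM, and Ifngr1, a chain of the interferon-gamma receptor, 25.76 to 34.89 CPM. Ligands of NKG2D were low, with group medians of 3.48 to 5.26 CPM for Ulbp1 and 0 to 0.84 CPM for Raet1e, and Fas had medians of 0 to 0.64 CPM. H2-T23, which encodes the Qa-1 heavy chain that CD94 receptors bind, had medians of 0 to 0.53 CPM. No test was run on these values.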

How the data were processed

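RNA from flow-sorted CD45+ and CD45- tumor cells was sequenced as 101-base single-end QuantSeq libraries. Per the labels and the study's methods, the authors trimmed reads with Trim Galore 0.5.0, aligned them to GRCm38 with STAR 2.6.0, collapsed molecular identifiers and counted reads per gene with featureCounts, and the deposited values are raw counts. The strand setting is not given in the sources used here. A last line without a gene name, equal to 100% of each column total, was left out.

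Counts were tested with edgeR 4.0.16 (R 4.3.3), with TMM factors, filterByExpr (minimum count 10, minimum total 15) and quasi-likelihood tests, in 1 fit per day with a term per group. The interaction was fitted over 34 libraries of both days. P-values were two-sided and Benjamini-Hochberg adjusted over all genes tested, with a threshold of 0.05. DESeq2 1.42.0, limma 3.58.1 (voom), other scaling, no filter, fewer groups, deeper libraries, a replicate block and left-out libraries were alternatives. CPM used TMM factors estimated over the 34 CD45+ libraries, and log2 CPM for correlations a prior count of 2. Ratios used counts plus 0.5. The script was tested on simulated counts.

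The 10 genes and the lists were chosen with earlier results of these data known. The text names the 10 genes and, for many lists and comparisons, up to 3 called genes with the smallest p. Not every called gene is named. For some of the 10 genes, some of the 5 tested genes with the highest r are named. The counts of genes with separate groups, the ribosomal sums and the fits without abscopal replicates 1 and 4 were added after the data were seen. Promoters came from a RefSeq table of GRCm38.p6 and loci from GENCODE.

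Depth was 887798 to 2824959 counts per CD45+ library, and counting error weighs most on Fasl and Ncr1, the genes of lowest level. The smallest chi-square per degree of freedom between replicates was 2.53, and no library was treated as a duplicate.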

Additional observations from a re-analysis of the deposited data

Results flagged for a closer look

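In 2 of 50 groups of libraries, 1 library lay far from the rest by Dixon's test, which chance flags in about 1 in 20 groups. Klrb1c reached 101.9 CPM in control replicate 2 of day 3, and the next library held 63.08 CPM. Ncr1 reached 55.77 CPM in histotripsy-abscopal replicate 1 of day 7, and the next library held 31.21 CPM. The cause of these values was not tested.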

How the results depend on the processing

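The fall of Klrd1 on day 3 kept its direction and its call under DESeq2, limma-voom, library totals, no filter, only the groups compared and the replicate block, and in 7 of 10 fits that left out 1 library (log2 fold changes -1.46 to -1.20). Over the alternatives other than left-out libraries, its edgeR, DESeq2 or limma-voom adjusted p ran from 4.08e-10 with no filter to 0.03 with limma-voom. Over the fits that left out 1 library, its edgeR adjusted p ran from 0.0142 to 0.0576. The depth limit of the deeper libraries left out no library of day 3. Over the leave-one-out fits of treated against control tumors on day 3, 0 to 1 of the 10 genes was called. With no filter on low counts, 5 of the 10 were called in treated against control (4.13% of 30097 genes), 1 in abscopal against control (0.508%) and 2 in treated against abscopal tumors on day 3 (3.4%), and 3 in the treated interaction (1.87% of 33634 genes). The cause was not tested. With abscopal replicates 1 and 4 of day 3 left out, which was chosen after the data were seen, 1 of the 10 (Klrd1, -0.93) was called in treated against abscopal tumors, and over the alternatives other than single left-out libraries its adjusted p there ran from 0.00566 with no filter to 0.397 with limma-voom. The signs of Ifng and Klrk1 in abscopal against control tumors turned to 0.031 each. The replicate numbers did not meet the criterion for pairing, every correlation over 0.1: the correlations of same-numbered deviations ran from 0.0145 to 0.324 for treated and abscopal tumors of day 3, and 4 of 12 of these libraries correlated best with their own number (5 of 6 on day 7). With the replicate block, 3 of the 10 genes were called in treated against control tumors on day 3 with edgeR (12.2% of all genes), Gzmb (-1.87, adjusted p = 0.00837), Klrk1 (-0.85, adjusted p = 0.0257) and Klrd1 (-1.56, adjusted p = 0.000838). Over the 7 alternatives other than left-out libraries, the adjusted p ran from 2.45e-09 to 0.209 for Gzmb and from 0.0174 to 0.21 for Klrk1. Of the values of single genes, 13 passed under an alternative and not as reported, and 3, all of Klrd1, passed as reported and not without 1 control library.

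Over all genes, calls in treated against control tumors on day 3 numbered 801 as reported, 1071 with DESeq2, 643 with limma-voom, 1077 with library totals, 1244 with no filter, 451 with only the groups compared and 1256 with the replicate block. They fell to 525, 334 and 361 without control replicate 2, 3 or 4. Against abscopal tumors, 558 became 1022 with no filter, 365 with only the groups compared, 264 without treated replicate 3 and 862 without treated replicate 5. The 304 interaction calls became 142 with limma-voom, 628 with no filter and 25 with the replicate block, with 236 (75 higher, 161 lower) under library totals. Without day 3 control replicate 1, 2, 3 or 4 they numbered 202, 181, 163 and 195, without day 3 treated replicate 3, 5 or 6 they numbered 172, 531 and 187, and without day 7 treated replicate 1 or 3 they numbered 30 and 62. With no filter, abscopal against control tumors on day 3 gave 153 calls, the comparisons of day 7 gave 32, 102 and 17, and the abscopal interaction gave 76.

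Signs turned for values near 0. In treated against control tumors of day 3 the log2 fold changes became -0.071 for Gzma with limma-voom, -0.11 for Gzma with library totals, -0.0038 for Gzma with no filter and -0.025 for Gzma with the replicate block. In treated against abscopal tumors of day 3 the log2 fold changes became -0.12 for Ncr1 with limma-voom, -0.066 for Ncr1 with library totals, -0.0070 for Ncr1 with no filter and -0.12 for Ncr1 with the replicate block. In abscopal against control tumors of day 3 the log2 fold changes became -0.0041 for Gzma and -0.0068 for Klrb1c with library totals. In treated against control tumors of day 7 the log2 fold changes became 0.048 for Prf1 with limma-voom, 0.010 for Gzmb and 0.036 for Ifng with deeper libraries and -0.088 for Fasl and -0.44 for Klrd1 with the replicate block. In abscopal against control tumors of day 7 the log2 fold changes became 0.0056 for Prf1 with limma-voom and -0.027 for Ifng, -0.15 for Fasl, -0.20 for Klrb1c, -0.19 for Ncr1 and -0.11 for Klrk1 with the replicate block. In treated against abscopal tumors of day 7 the log2 fold changes became 0.042 for Prf1 with limma-voom, 0.026 for Prf1 with library totals, 0.024 for Prf1 with no filter, 0.040 for Prf1 with deeper libraries and 0.084 for Prf1 with the replicate block.

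Leaving out 1 library gave these ranges where a sign turned. In treated against abscopal tumors of day 3 they were -0.20 to 0.15 for Gzma, -0.12 to 0.20 for Ncr1 and -0.25 to 0.048 for Klrb1c. In treated against control tumors of day 3 they were -0.12 to 0.24 for Gzma and -0.17 to 0.23 for Klrb1c. In abscopal against control tumors of day 3 they were -0.18 to 0.0052 for Ifng, -0.37 to 0.0059 for Prf1, -0.0098 to 0.33 for Klrb1c and -0.037 to 0.26 for Gzma. In treated against control tumors of day 7 they were -0.18 to 0.086 for Prf1, -0.66 to 0.19 for Gzmb and -0.29 to 0.25 for Klrd1. In abscopal against control tumors of day 7 they were -0.22 to 0.060 for Gzma, -0.17 to 0.19 for Prf1, -0.18 to 0.075 for Nkg7, -0.014 to 0.39 for Klrb1c, -0.12 to 0.31 for Ncr1 and -0.044 to 0.28 for Ifng. In treated against abscopal tumors of day 7 they were -0.13 to 0.17 for Fasl, -0.27 to 0.13 for Prf1, -0.25 to 0.013 for Nkg7, -0.032 to 0.27 for Klrk1 and -0.19 to 1.05 for Gzmb. The 10 genes turned no sign in the treated interaction.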
